A study of Mus musculus with 6 samples.

Results

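Major urinary protein (Mup) genes were described in RNA libraries from mice that bore a human tumor in the liver. The 7 genes are Mup3, Mup7, Mup9, Mup12, Mup17, Mup20 and Mup21, of 56884 genes in the mouse count table and of 49 Mup genes and pseudogenes in it. They were chosen by name with their siAATF and siControl counts known, several of them for large differences between the groups. Their difference between the groups is therefore given as a description, without a test.

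Major urinary proteins are small secreted proteins of the lipocalin family, which hold volatile odorants in a pocket. In mice they are made mainly by hepatocytes, pass into the urine, and carry information on sex and identity. Their liver transcription is known to depend on the male pulse pattern of growth hormone, which acts through the growth hormone receptor and STAT5B, and on androgens and glucocorticoids. Mup20 encodes darcin, the male protein pheromone that attracts females.

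The 6 RNA libraries were 3 labelled siControl and 3 labelled siAATF. The animals were male, athymic and of the BALB/c (nu/nu) strain, with 6 weeks given as their age and WT as their genotype. By the paper's timing 6 weeks is about the age at implantation, and not that at sampling. All mice carried cells of the human hepatocellular carcinoma (HCC) line QGY-7703 in the liver. At 1 week after implantation they received AAV8, a liver-directed viral vector, by tail vein, with either a control siRNA or an siRNA against Aatf, and 3 further weeks followed. The TBG promoter of the vector is active in hepatocytes, and the study aimed the siRNA at the mouse cells around the human tumor. Whether each library is a separate animal is not stated in the labels, and p-values measure only the spread between these libraries.

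The libraries differed in ways that bear on every value given here. The siControl libraries were nearly all human, with 98.1% to 99.2% of their gene counts on human genes, against 0.972% to 2.14% in siAATF. This left 213022 to 913584 mouse counts per library in siControl, beside 11835898 to 42563694 in siAATF. A count of 0 allows up to 3 counts, or 3.28 to 14.1 CPM (counts scaled to 1e+06 mouse counts) in a siControl library and at most 0.253 CPM in siAATF. PCR copies of 1 molecule are counted separately, so such limits and all intervals cover counting error alone. The part of misassigned human reads in the siControl mouse counts was not tested. Of 19 hepatocyte markers tested, 18 were called higher in siAATF (adjusted p under 0.05 in edgeR's test across the mouse table), and their summed TMM-normalized CPM (CPM scaled by the trimmed mean of M-values) was 7251 to 17078 in siControl and 73901 to 238229 in siAATF. Of 28 markers of macrophages, endothelium, fibroblasts, leukocytes and bile ducts, 17 were called lower and 1 higher, and their sum was 11830 to 15968 in siControl and 676 to 985 in siAATF. All 19 hepatocyte markers had counts in both groups. Col1a1, a collagen chain of fibroblasts, fell by 8.27 on the log2 scale (standard error 0.77). In such bulk tissue, fewer hepatocytes and less RNA per hepatocyte cannot be told apart. The groups thus set mostly human tumor RNA against mostly mouse RNA, and a low siControl Mup level is not a measure of liver alone. The siRNA target Aatf was at 2.42 to 12.8 TMM-normalized CPM in siControl and at 13.3 to 22.0 in siAATF, and was not called (adjusted p = 0.152), so each direction given is that of the library labels.

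All 7 genes lie on the minus strand of chromosome 4 of GRCm39, in a cluster of 48 Mup genes and pseudogenes between 59956804 and 62069100, of which 22 are protein-coding. Mup7 is at chr4:60066469-60070475, Mup9 at chr4:60374045-60377943, Mup12 at chr4:60693382-60697325 and Mup17 at chr4:61510166-61514108. Mup20 follows at chr4:61968471-61972395, Mup3 at chr4:62001713-62005579 and Mup21, the last Mup gene of the cluster, at chr4:62066169-62069100. No exon base of the 7 overlaps an exon of another gene in the count table. The stretch of 90 coding bases shown here, from coding exon 2 of each gene, was chosen because it shows which members a short read can tell apart. Capitals mark bases that differ from the commonest base among the 7 genes at that position.
Mup17: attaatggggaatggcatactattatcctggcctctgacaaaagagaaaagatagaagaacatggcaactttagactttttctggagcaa
Mup7: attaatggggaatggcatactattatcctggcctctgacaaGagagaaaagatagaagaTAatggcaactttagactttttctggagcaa
Mup9: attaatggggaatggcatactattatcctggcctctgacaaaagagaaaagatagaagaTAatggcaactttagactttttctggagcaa
Mup12: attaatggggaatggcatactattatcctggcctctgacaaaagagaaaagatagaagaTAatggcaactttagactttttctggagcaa
Mup20: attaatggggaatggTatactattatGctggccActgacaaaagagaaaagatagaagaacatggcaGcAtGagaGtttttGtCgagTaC
Mup3: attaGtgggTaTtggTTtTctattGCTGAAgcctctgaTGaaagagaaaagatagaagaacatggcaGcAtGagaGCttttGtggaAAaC
Mup21: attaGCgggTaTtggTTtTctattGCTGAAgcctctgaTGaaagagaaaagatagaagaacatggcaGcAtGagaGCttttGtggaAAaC

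The stretch of Mup3 is chr4:62005081-62005170, that of Mup9 chr4:60377362-60377451 and that of Mup20 chr4:61971761-61971850, all on the minus strand of GRCm39. Mup9 and Mup12 carried the same letters, and Mup7 differed from the commonest bases at 3 positions. Mup20 differed from them at 11 positions, Mup3 at 23 and Mup21 at 24, many of these shared between Mup3 and Mup21.

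Over the whole coding sequence the 7 genes fell into the same kinds. Mup7, Mup9, Mup12 and Mup17 have 540 coding bases each and differed from one another at 3 to 7 of them. Mup3 and Mup21 were each other's nearest Mup gene, at 94.8% identity with 29 differing positions. Mup20 had the least similar nearest relative, Mup11, at 91.3% identity. Mup9 differed at 1 position from Mup19, a gene outside the 7, and Mup12 at 2 positions from Mup1.

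The authors discarded reads that mapped to several places, so a read from a stretch shared by 2 copies was lost to both. Every window of 150 bases, the read length, in the exons of each gene was therefore searched in the mouse genome and in the spliced exons of the other Mup genes. Mup3 and Mup21 had no shared window, at 919 and 528 unique windows of 919 and 528. In Mup17, 59.6% of windows were found nowhere else, and in Mup20 40.1%. Among the exons of Mup genes alone the share of Mup20 was 68.9%, so many of its shared windows recur outside annotated Mup exons. In Mup7 the share was 26.2%, in Mup9 25.3% and in Mup12 24.1%. Of 19 hepatocyte markers, 16 were unique in every window. Pooled over the 7 genes the share was 51.7%, and it was 42.2% over the 22 protein-coding Mup genes. Reads come in pairs, and with both mates laid end to end as 300 bases the share was 57.8% in Mup7, 59.0% in Mup9, 32.4% in Mup12, 73.5% in Mup20 and 100% in Mup17. Counts of Mup7, Mup9, Mup12, Mup17 and Mup20 are thus from part of their sequence, and their levels relative to one another are uncertain. Mup22, outside the 7, had 0 unique windows of 712 and 1364, 92 and 652 counts in siAATF replicates 1 to 3. With 300 bases 10.3% of its windows were unique. The reference genome is of the C57BL/6J strain, the Mup cluster is known to vary between strains, and the part of strain differences in these counts was not tested.

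**Figure D1:**
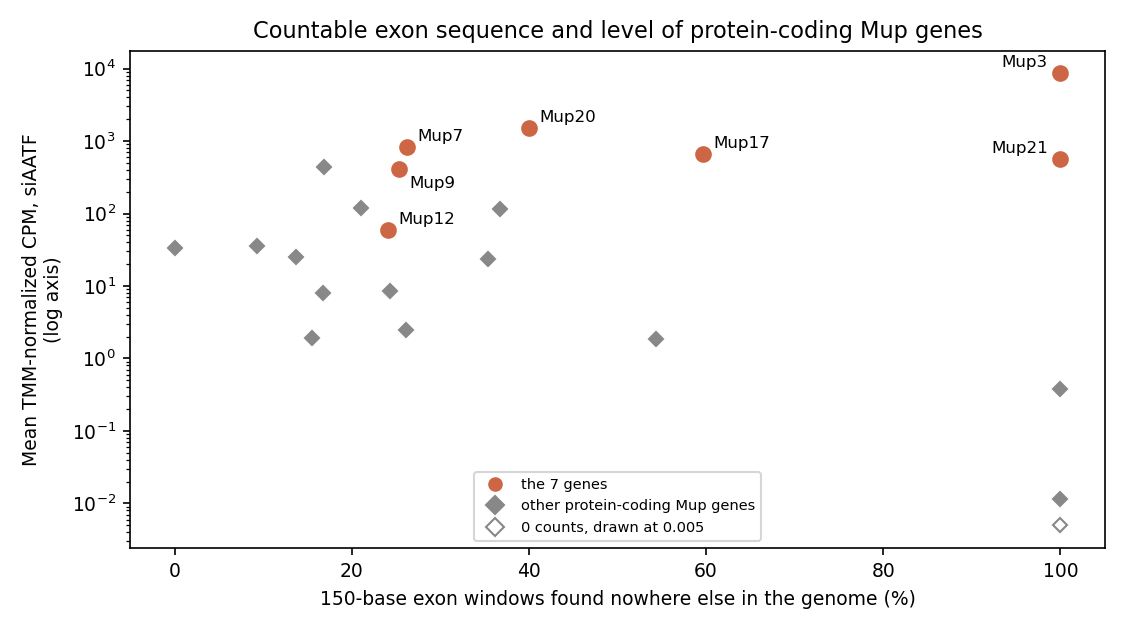
Share of 150-base exon windows found nowhere else (horizontal axis, %) and mean TMM-normalized CPM of the 3 siAATF libraries (vertical log axis) for the 22 protein-coding Mup genes, circles for the 7 genes and diamonds for the others, with the gene without counts drawn as an open diamond at 0.005. Mup3 and Mup21 lie at 100%, as do Mup4, Mup5 and Mup6, which have the lowest levels, and the other 5 of the 7 lie between 24.1% and 59.6%.

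RefSeq promoter sequences (GRCm38.p6) were at hand for 5 of the 7 genes, Mup3, Mup7, Mup9, Mup17 and Mup21, and not for Mup12 and Mup20. The 250 bases before each start site were searched on both strands for 4 short motifs. These were ATCAAT, a core of sites bound by Onecut factors such as HNF6, TTCNNNGAA, the core of STAT5 sites, TTGCNNAA, a core of CEBP sites, and TATAAA. Each of the 5 promoters held ATCAAT in 2 places, 56 or 57 bases apart. Over 32851 promoters of the same length, 6.72% held it at least once and 0.609% at least 2 times. The stretch from the first to the second copy is shown because it is common to the near-identical genes and to Mup3 and Mup21, with ATCAAT in capitals.
Mup3: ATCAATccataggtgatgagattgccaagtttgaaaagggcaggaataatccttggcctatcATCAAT
Mup21: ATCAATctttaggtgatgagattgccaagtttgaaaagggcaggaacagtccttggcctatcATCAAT
Mup17: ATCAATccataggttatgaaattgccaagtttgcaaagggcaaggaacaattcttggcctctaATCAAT
Mup7: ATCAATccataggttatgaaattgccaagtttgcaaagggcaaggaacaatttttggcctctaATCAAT

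These are chr4:62087412-62087479 for Mup3, chr4:62150930-62150997 for Mup21, chr4:61595975-61596043 for Mup17 and chr4:60070489-60070557 for Mup7, on the minus strand of GRCm38.p6. Mup9 carried the same letters as Mup17. The second copy ended 88 to 150 bases before the start site in Mup3, Mup9, Mup17 and Mup21 and 13 bases before the start given for Mup7. TTCNNNGAA was in none of these 5 windows, and in 7.02% of all promoters. TTGCNNAA (9.56% of promoters) and TATAAA (12.4%) were not in these letters in the 5 windows either. A match or its absence describes these letters only and gives no binding.

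The 7 genes together took a small part of the mouse counts, and a larger one in siAATF. The siControl replicates 1 to 3 held 934, 5 and 61 counts on them, and the siAATF replicates 573285, 42869 and 169853. That is 0.133%, 0.00235% and 0.00668% of mouse counts in siControl, with 95% Wilson intervals of 0.125% to 0.142%, 0.00100% to 0.00549% and 0.00520% to 0.00858%. In siAATF it is 1.35%, 0.362% and 0.486%, with intervals of 1.34% to 1.35%, 0.359% to 0.366% and 0.483% to 0.488%. Averaged over libraries, the genes took 0.0473% ± 0.0741 in siControl and 0.732% ± 0.536 in siAATF (SD, n = 3 each). The groups did not overlap, but within each group 1 library, replicate 1 in both, was well above the other two. Without replicate 1 the mean was 0.00451% in siControl and 0.424% in siAATF. Mitochondrial genes took 25.7%, 56.1% and 20.8% of mouse counts in siAATF replicates 1 to 3 and 4.04% to 10.5% in siControl. Without them the siAATF shares were 1.81%, 0.825% and 0.613%, so that replicate 2 passed replicate 3. The members took 90.9% to 97.7% of the counts on all Mup genes and pseudogenes in siAATF.

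Mup3, the most abundant of the 7 in siAATF, counted 323, 1 and 51 reads in siControl replicates 1 to 3, against 368427, 28721 and 131288 in siAATF. After TMM normalization this was 259, 2.42 and 28.4 CPM in siControl, against 12714, 5793 and 7283 in siAATF. The groups did not overlap, and siControl replicate 1 was far above the other two of its group. Mean levels were 96.7 ± 141 in siControl and 8596 ± 3642 in siAATF (SD, n = 3 each), a ratio of 88.9, which was 557 without siControl replicate 1 and 59.7 without siControl replicate 2. The TMM factors were 1.77 to 1.96 in siControl and 0.419 to 0.681 in siAATF, and in CPM without TMM the ratio was 28.5. Mup3 varied least of the 7 among the siAATF libraries, 2.19-fold from the lowest to the highest, or 3.57-fold in CPM without TMM.

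Mup20, the gene of darcin, counted 603, 4 and 5 reads in siControl, against 75252, 1035 and 30216 in siAATF. The TMM-normalized values were 484, 9.66 and 2.79 CPM for siControl, against 2597, 209 and 1676 for siAATF. It was the only 1 of the 7 whose groups overlapped, siControl replicate 1 being above siAATF replicate 2. Mean levels were 166 ± 276 in siControl and 1494 ± 1204 in siAATF (SD, n = 3 each), a ratio of 9.02. That ratio was 240 without siControl replicate 1, 5.69 without siAATF replicate 1, 6.14 and 6.05 without siControl replicates 2 and 3, and 12.9 without siAATF replicate 2. In CPM without TMM it was 3.08.

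Mup21, the nearest relative of Mup3, was nearly without counts in siControl, at 5, 0 and 3, against 36866, 1698 and 1634 in siAATF. In TMM-normalized CPM this was 4.01, 0 and 1.67 against 1272, 342 and 90.6, with no overlap. Over the pooled counts of each group the ratio was 334, with a counting interval of 169 to 773. The ratio of the group means was 299.8, 114 without siAATF replicate 1, 679 without siControl replicate 1 and 102 in CPM without TMM. All its windows are unique in the reference.

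Mup7 had 3, 0 and 2 counts in siControl against 30538, 5873 and 4664 in siAATF. In TMM-normalized CPM this was 2.41, 0 and 1.12 against 1054, 1185 and 259. The pooled ratio was 546, with a counting interval of 234 to 1681. The ratio of the group means was 709, 1492 without siControl replicate 1 and 209 in CPM without TMM. Replicates 1 and 2 of siAATF were close, and their order turned with the scaling, since in CPM without TMM they had 717 and 496.

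Mup9, Mup12 and Mup17 had 0 counts in every siControl library. In siAATF replicates 1 to 3, Mup17 had 46064, 1395 and 1803 counts, or 1590, 281 and 100 TMM-normalized CPM. Mup9 had 12109, 3997 and 119 counts, or 418, 806 and 6.60. Mup12 had 4029, 150 and 129 counts, or 139, 30.3 and 7.16. Against a floor of 3 counts per siControl library, which averages 3.78 TMM-normalized CPM, the siAATF mean was at least 174-fold higher for Mup17, at least 109-fold for Mup9 and at least 15.6-fold for Mup12. In CPM without TMM, where that floor averages 7.21, the bounds were lower, at 57.9 for Mup17, 28.9 for Mup9 and 5.13 for Mup12. The bounds on the TMM scale moved with single libraries, to 50.5 for Mup17 and 4.95 for Mup12 without siAATF replicate 1, to 56.2 for Mup9 without siAATF replicate 2, and to 322, 201 and 28.8 for Mup17, Mup9 and Mup12 without siControl replicate 2, the shallowest library. The floor of siControl replicate 2 alone was 7.25, so the levels of Mup9 and Mup12 in siAATF replicate 3 would not have been detectable at that depth.

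Of the 7 genes, 6 did not overlap between the groups. Over the 18018 mouse genes tested, 34.5% were higher in every siAATF library than in every siControl library. Since the 7 genes were chosen on this contrast, nothing is read from their count.

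**Figure D2:**
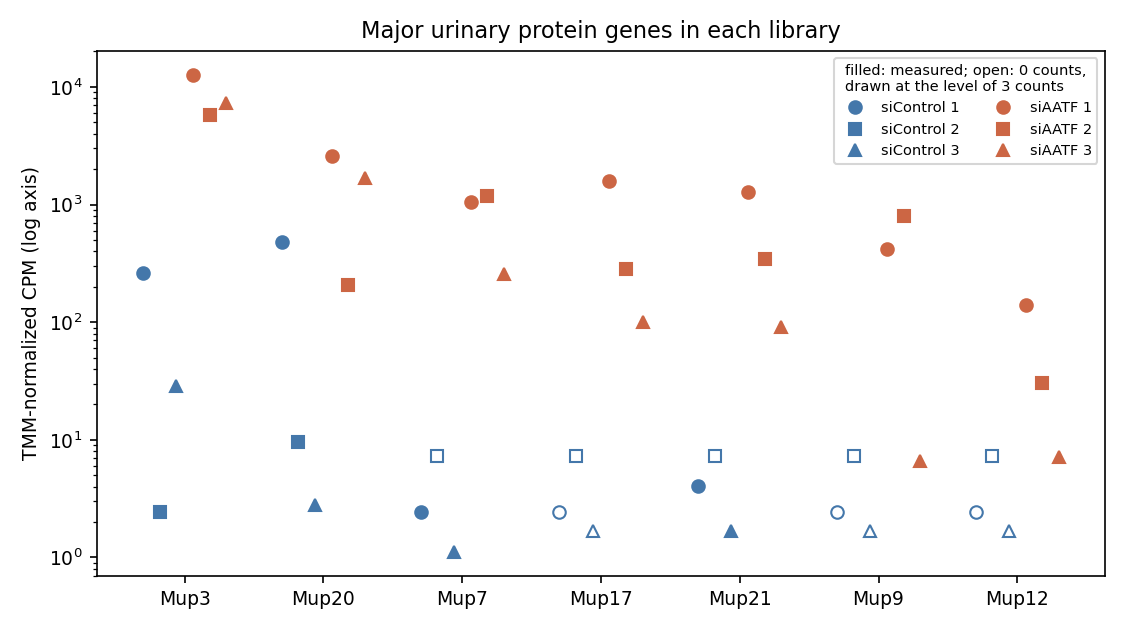
TMM-normalized CPM (log axis) of each of the 7 genes in the 6 libraries, siControl in blue and siAATF in orange, with a marker shape for each replicate number, and open markers for 0 counts, drawn at the level of 3 counts. Mup3 is highest in every siAATF library, siControl replicate 1 (blue circle) holds 259 for Mup3 and 484 for Mup20, and for Mup20 it lies above siAATF replicate 2 at 209.

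The siControl counts of each gene were set against those of siAATF. Summed over each group, siControl had 2.05% of the mouse counts of siAATF and 0.295% of its Alb counts. For Mup20 it had 0.575% of the siAATF counts and for Mup3 0.0710%. For Mup21 it was 0.0199%, for Mup7 0.0122%, and for Mup9, Mup12 and Mup17 there was no count. These values moved when siControl replicate 1 was left out, to 0.00845% for Mup20, 0.00984% for Mup3, 0.00746% for Mup21, 0.00487% for Mup7 and 0.131% for Alb. Mup20 made up 64.6% of the counts on the 7 genes in siControl replicate 1, with an exact 95% interval of 61.4% to 67.6%. In siAATF replicates 1 to 3 its share was 13.1%, 2.41% and 17.8%. The share in siControl replicate 3 was 8.20%, with an interval of 2.72% to 18.1%, which covers 2 of the siAATF shares. The 5 counts of siControl replicate 2 gave 80.0%, with an interval of 28.4% to 99.5%. Mup3 took 34.6% in siControl replicate 1 and 64.3%, 67.0% and 77.3% in the siAATF libraries. In siControl replicate 3 it took 83.6%, with an interval of 71.9% to 91.8%, which covers 1 of the siAATF shares, and in replicate 2 it was 1 of 5 counts, with an interval of 0.505% to 71.6%. The high Mup20 share was thus well measured in 1 library only.

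**Figure D3:**
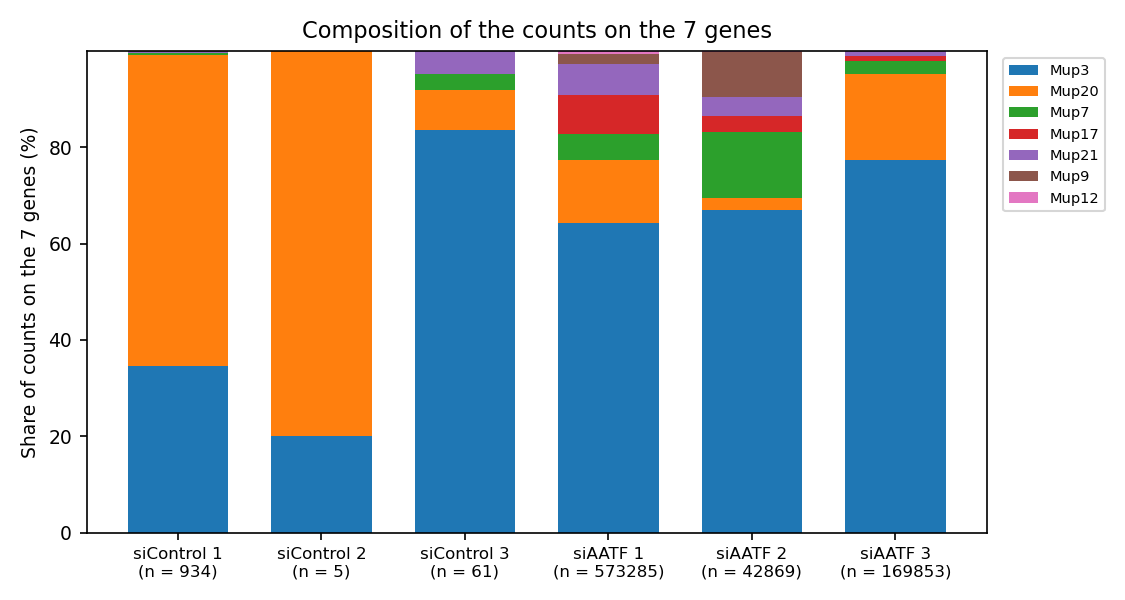
Share of the counts on the 7 genes (%) taken by each gene, 1 bar per library, with the number of counts in parentheses. Mup20 takes 64.6% in siControl replicate 1 and 2.41% to 17.8% in siAATF, where Mup3 takes 64.3% to 77.3%. The bar of siControl replicate 2 rests on 5 counts.

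Counts were also set against Alb, which hepatocytes make in both groups and which itself was called higher in siAATF (log2 fold change 4.23, standard error 1.02, adjusted p = 0.00687), a call that was lost without siControl replicate 2 (adjusted p = 0.0543) or 3 (adjusted p = 0.0828). Per 1000 Alb counts, the 7 genes reached 303, 11.4 and 30.0 in siControl replicates 1 to 3, against 467, 692 and 286 in siAATF. On this scale siControl replicate 1 lay within the siAATF range, and the other two siControl libraries lay far under it. For Mup3 this gave 105, 2.28 and 25.1 in siControl, against 300, 464 and 221 in siAATF, still without overlap. For Mup20 it gave 196, 9.13 and 2.46 in siControl, against 61.4, 16.7 and 50.9 in siAATF, so that siControl replicate 1 had the highest value of all 6. Taken singly, Mup20 overlapped between the groups per Alb count, and the other 6 did not when each siControl 0 was read as 0. In siControl replicate 1, 3 counts are 0.974 per 1000 Alb counts, and in replicate 2, 1 count is 2.28. Mup9, Mup12, Mup17 and Mup21 in siAATF replicate 3 were at 0.201, 0.218, 3.04 and 2.76, so their separation from siControl is not resolved. The share of all genes without overlap on this scale was not computed, and nothing is read from the count of 6. The 18 male-biased liver genes listed further on had 346, 174 and 203 counts per 1000 Alb counts in siControl and 302, 441 and 171 in siAATF, with full overlap of the groups. Taken singly, 11 of the 17 tested male-biased genes overlapped per Alb count, so the sum does not stand for each gene. In siAATF 3 were lower without overlap (Egfr, Gstp1 and Serpina1e), and 3 higher when a siControl 0 was read as 0 (Elovl3, Hsd3b5 and Ugt2b38). Hsd3b5 and Ugt2b38 had no siControl count. In siAATF replicate 3 they were at 0.221 and 0.0219, under the level of 3 counts in siControl replicate 1, so their separation is not resolved. Elovl3 had 0.974, 0 and 0.492 per 1000 Alb counts in siControl, against 39.8, 43.9 and 4.68 in siAATF.

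**Figure D4:**
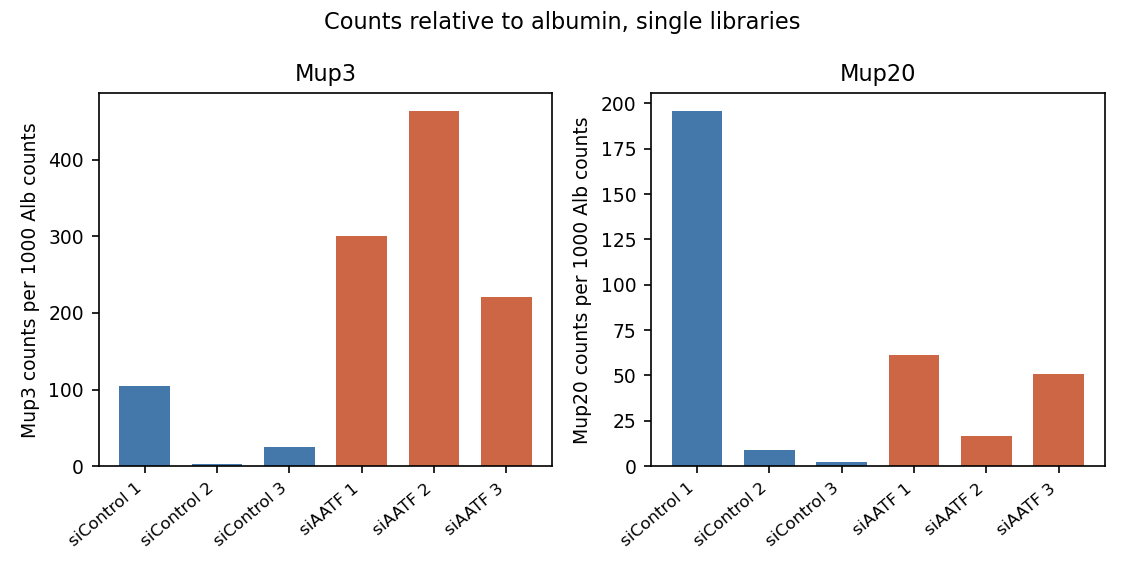
Counts of Mup3 (left) and Mup20 (right) per 1000 Alb counts in each library, siControl in blue and siAATF in orange. For Mup3 the siAATF libraries, at 221 to 464, lie above all siControl libraries, and for Mup20 siControl replicate 1, at 196, lies above all siAATF libraries.

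Levels of different genes were compared per kilobase of exon and within siAATF alone. Mup3 was first in each of the 3 libraries, at 8049 ± 3410 TMM-normalized CPM per kilobase (SD, n = 3). Mup20 followed with 1610 ± 1298, Mup21 with 840 ± 919, Mup7 with 806 ± 485 and Mup17 with 709 ± 877. Mup9 had 400 ± 390 and Mup12 63.5 ± 76.1. Per kilobase, only the step from Mup3 to Mup20 was free of overlap between libraries, and every later pair of neighbours overlapped. Mup20 was in second place in siAATF replicates 1 and 3 and in place 6 in replicate 2. Divided by the number of unique windows in place of the length, the means per 1000 windows were 9354 for Mup3, 4788 for Mup20, 3588 for Mup7 and 1848 for Mup9. On that scale Mup17 had 1416, Mup21 1077 and Mup12 315, so Mup21 moved from place 3 to place 6. The step from Mup3 to Mup20 overlapped there too, Mup20 in siAATF replicate 1, at 8323, being above Mup3 in replicates 2 and 3, at 6304 and 7925.

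The spread among the siAATF libraries differed widely between members. From the lowest to the highest siAATF library, TMM-normalized CPM differed 4.58-fold for Mup7, 12.4-fold for Mup20, 14.0-fold for Mup21, 15.9-fold for Mup17, 19.4-fold for Mup12 and 122-fold for Mup9. In CPM without TMM the spread of Mup20 was 20.2-fold. For Mup20 the lowest library was siAATF replicate 2, and for Mup7, Mup9, Mup12, Mup17 and Mup21 it was siAATF replicate 3. Replicate 3 held 0.0158 times the replicate 1 level of Mup9, 0.0515 times that of Mup12, 0.0629 times that of Mup17 and 0.0712 times that of Mup21. It held 0.246 times that of Mup7, 0.573 times that of Mup3 and 0.645 times that of Mup20. The near-identical genes Mup9 and Mup7 were therefore unlike in replicate 3, and Mup21, whose windows are all unique, was as low there as Mup17.

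Other genes were examined between the same pair of libraries, as a description of single libraries without a test. Of 16923 genes with at least 10 counts in siAATF replicates 1 and 3 together, 50.7% were lower in replicate 3, with a median log2 ratio of -0.01. All 7 members were lower, with a median log2 ratio of -3.80 on the scale of TMM-normalized CPM plus 1. Of the other Mup genes, 27 of 29 were lower (median -1.42), and of the male-biased liver genes 16 of 17 (median -1.65). Hsd3b5, a male-predominant steroid-metabolizing enzyme, had 12075, 769 and 131 counts in siAATF replicates 1 to 3 and was at 0.0174 times in replicate 3. Of 11 female-biased genes, 7 were higher in replicate 3 (median 0.93), among them Cyp3a44, a cytochrome P450, with 13, 0 and 352 counts, and A1bg with 4, 0 and 133. These 2 and the lipocalins named next were picked after their values were seen. Of 19 hepatocyte markers, 9 were lower and 10 higher (median 0.06). Of 9 other lipocalin genes, 4 were lower and 5 higher (median 2.17). Lcn2, a lipocalin of the acute-phase response, had 12.3, 340 and 6554 TMM-normalized CPM in siAATF replicates 1 to 3, and Orm2, another one, had 8.83, 181 and 9157. Markers of neutrophils stood highest in that library as well, S100a9 having 1.45, 1.82 and 75.7 TMM-normalized CPM. The part of any of these in the low Mup counts of replicate 3 was not tested.

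**Figure D5:**
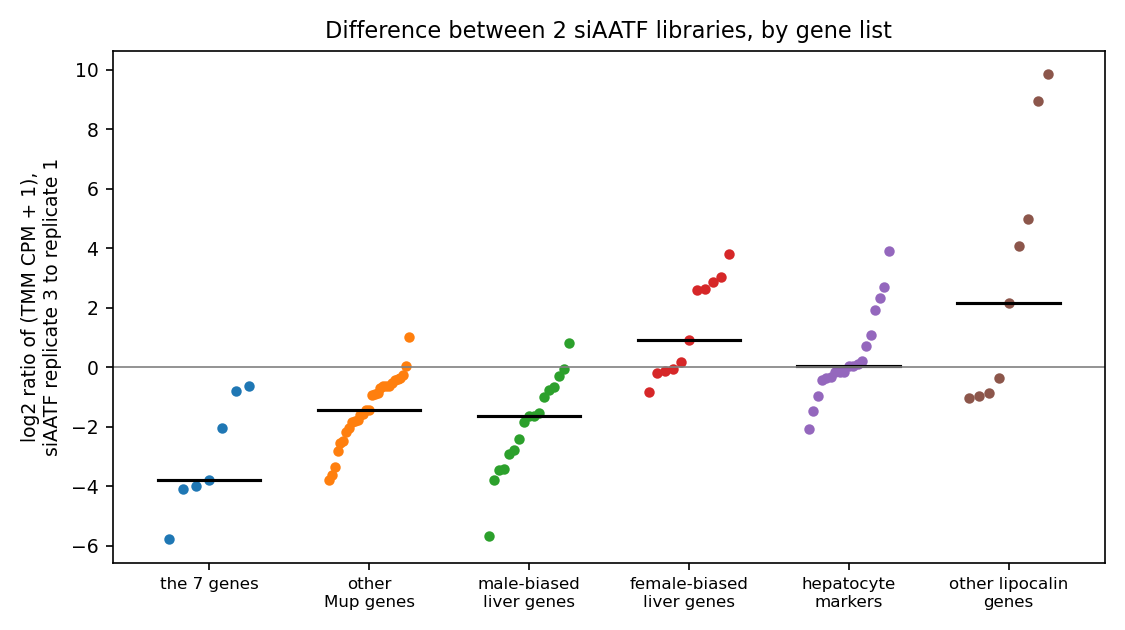
The log2 ratio of (TMM-normalized CPM + 1) in siAATF replicate 3 to that in siAATF replicate 1, 1 point per gene with at least 10 counts in the 2 libraries together, for 6 gene lists, with a bar at each median. The 7 genes lie at a median of -3.80, male-biased genes at -1.65, hepatocyte markers at 0.06 and female-biased genes at 0.93.

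The other Mup genes were taken from the fit across the whole mouse table (quasi-likelihood test of edgeR, p adjusted by Benjamini-Hochberg over all genes, called at an adjusted p under 0.05). Of 42, 29 had the 10 counts needed, and 10 of these were called higher in siAATF and none lower. Over all mouse genes 17.6% (3169) were called higher and 14.4% (2593) lower. Scaled by library size alone, 747 of all genes were called higher and 7276 lower, and 9 of the other Mup genes were still called higher. No median fold change is given, since 26 of the 29 had no count in any siControl library and passed the filter through siAATF alone. These 26 could not be called lower, so nothing is read from the number of calls beside the share of all genes. Of 15 protein-coding genes, 9 were called, Mup1, Mup2, Mup11, Mup14, Mup15, Mup16, Mup18, Mup19 and Mup22. Mup11 had 1, 0 and 0 siControl counts against 34396, 187 and 1729 in siAATF (adjusted p = 0.000656), the largest count outside the 7. Mup14 had 8, 0 and 0 against 7905, 27 and 1434 (adjusted p = 0.00692). Mup16 had no count in siControl and 6973, 203 and 1217 in siAATF, at least 30.8-fold higher (adjusted p = 0.000262). Mup15, with 2763, 24 and 152 siAATF counts, was at least 9.59-fold higher (adjusted p = 0.00939). Mup18, with 1630, 56 and 161, was at least 6.75-fold higher (adjusted p = 0.00242), and Mup22 at least 8.98-fold (adjusted p = 0.000148). Without siAATF replicate 1 these bounds were 14.4 for Mup16, 1.76 for Mup15 and 2.68 for Mup18, and without siControl replicate 2 they were 57.0 for Mup16, 17.7 for Mup15, 12.5 for Mup18 and 16.6 for Mup22. In CPM without TMM they were 9.97 for Mup16, 3.30 for Mup15 and 2.20 for Mup18, with Mup22 between Mup15 and Mup18. Mup1, whose adjusted p was 0.0106, had 911, 193 and 24 counts in siAATF, Mup2 (adjusted p = 0.0179) had 328, 65 and 22, and Mup19 (adjusted p = 0.0199) had 328, 61 and 14. Mup1 and Mup19 had no siControl count, and their bounds were 6.33-fold and 2.15-fold. The calls of Mup1, Mup2 and Mup19 were lost without siControl replicate 3 (adjusted p = 0.0517, 0.113 and 0.0864), that of Mup2 also without siControl replicate 2 (adjusted p = 0.0542) and that of Mup19 without siControl replicate 1 (adjusted p = 0.0548).

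Mup8, Mup10, Mup13 and Mup6 did not pass, with adjusted p from 0.0766 for Mup8 to 0.293 for Mup6. Mup4 had no count in any library and Mup5 had 1. Mup4 and Mup5 are known mainly from glands of the head and not from liver, and every window of both is unique in the reference. Of the 27 pseudogenes 16 were tested and 1 was called, Mup-ps13 (adjusted p = 0.00325). All pseudogenes together had 940 counts in siAATF and none in siControl.

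Because Mup transcription is known to follow male growth hormone secretion, other genes with a male bias in mouse liver were examined. Of 18, 17 were tested, and all 17 were called higher in siAATF, with a median log2 fold change of 4.53 beside 0.50 over all genes. Hsd3b5 had no count in siControl and was at least 51.1-fold higher (adjusted p = 0.00197), a bound that was 21.5 without siAATF replicate 1, 94.6 without siControl replicate 2 and 16.3 in CPM without TMM. Elovl3, an enzyme of fatty acid elongation, had 3, 0 and 1 siControl counts against 48791, 2722 and 2775 in siAATF (adjusted p = 0.000109). Cyp4a12b, a fatty acid hydroxylase, had 1, 0 and 0 against 1018, 122 and 29 (adjusted p = 0.00795), and Ugt2b38, a glucuronosyltransferase, had no count against 508, 29 and 13 (adjusted p = 0.0268). The bound of Ugt2b38 was 2.13-fold, 0.870 without siAATF replicate 1 and 0.682 in CPM without TMM, so its rise is not resolved against the siControl floor. The calls of Ugt2b38 and Cyp4a12b were lost when siControl replicate 3 was left out (adjusted p = 0.107 and 0.0600), and that of Ugt2b38 also without siControl replicate 1 or 2 or siAATF replicate 1 (adjusted p = 0.0694, 0.0593 and 0.0536). Since 18 of 19 hepatocyte markers were called higher as well, with a median of 4.38, the male-biased list moved with the hepatocyte list.

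Genes with a female bias had few counts in siControl. Of 20, 11 were tested and 1, Cyp2c40, was called higher, with 1, 0 and 0 siControl counts against 284, 23 and 151 in siAATF (adjusted p = 0.00387). The count of calls was 3 without siAATF replicate 1 and 2 without siAATF replicate 2. The summed level of the list was 7.25 to 15.3 TMM-normalized CPM in siControl and 16.7 to 103 in siAATF.

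Growth hormone acts on hepatocytes through its receptor Ghr, the kinase Jak2 and the transcription factor Stat5b, and SOCS proteins damp the signal. Of 17 genes of this pathway and of Mup regulation, 7 were called higher, 3 lower and 7 not, with a median log2 fold change of 0.76 beside 0.50 over all genes. Ghr was at 40.9, 12.1 and 25.1 TMM-normalized CPM in siControl, against 434, 243 and 279 in siAATF (log2 fold change 3.55, standard error 0.53, adjusted p = 0.000338). Igf1, the circulating growth factor that the pathway induces in liver, rose by 4.08 on the log2 scale (standard error 0.61, adjusted p = 0.000339), and Igfals, its serum carrier subunit, by 4.96 (adjusted p = 0.000246), or by 6.69 without siControl replicate 1. Prlr, the prolactin receptor, rose by 5.17 (adjusted p = 6.98e-05). Stat5b had 31.3, 14.5 and 25.1 in siControl and 53.8, 28.4 and 42.3 in siAATF and did not pass (adjusted p = 0.167), though it did without siAATF replicate 2 (adjusted p = 0.0343), and it turned to -0.97 on the log2 scale when libraries were scaled by size alone.

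Of the liver transcription factors on the list, Hnf4a, a main regulator of hepatocyte genes, rose by 3.27 (standard error 0.57, adjusted p = 0.000895), and Onecut1, which encodes HNF6, rose by 4.96 (standard error 0.85, adjusted p = 0.000876). Onecut1 had 73.4, 77.1 and 12.4 TMM-normalized CPM in siAATF replicates 1 to 3. Without siControl replicate 1 the log2 fold change was 5.92 for Onecut1 and 4.07 for Hnf4a. Jak2 fell by 2.09 (adjusted p = 0.000867), Socs1, an inhibitor of Jak kinases, fell by 3.16 (adjusted p = 0.00389), and Igfbp3, a carrier of IGF1 made mainly by non-parenchymal liver cells, fell by 5.74 (adjusted p = 0.000110), and without siAATF replicate 1 it fell by 6.82. The rises in this list moved with the hepatocyte markers and the falls with the markers of other cells, and the part of cell makeup in them was not tested.

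Other lipocalins made in the liver were set beside the Mup genes. Of 10, 9 were tested and 6 were called higher, 3 of them when siControl replicate 3 was left out. C8g, a subunit of complement component 8, had 15.9 ± 8.60 TMM-normalized CPM in siControl and 983 ± 139 in siAATF (SD, n = 3, adjusted p = 5.26e-05). Rbp4, the retinol carrier of plasma, rose by 3.71 on the log2 scale (adjusted p = 0.00268), and Orm3, an orosomucoid, by 4.11 (adjusted p = 0.00832). Rbp4 stood at 3.11 without siAATF replicate 1, and Orm3 at 2.40 without siAATF replicate 3 (adjusted p = 0.00259). Orm1, an acute-phase orosomucoid, rose by 3.47 (adjusted p = 0.0304), with 1250.2, 1462 and 21284 TMM-normalized CPM in the siAATF libraries. Its call was lost without siAATF replicate 3, the library at 21284 (log2 fold change 0.98, adjusted p = 0.229), and without siControl replicate 1, 2 or 3 (adjusted p = 0.0509, 0.126 and 0.146). Lcn2 had 1889, 1314 and 1031 in siControl and, as given above, 12.3 to 6554 in siAATF, and did not pass (adjusted p = 0.708).

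Of 31 named genes within the Mup cluster or 500 kb of its ends, 21 were tested and 6 were called higher, 3 of them when siControl replicate 3 was left out. The median log2 fold change was 0.30, beside 0.50 over all genes. Alad, an enzyme of heme synthesis, rose by 3.11 (adjusted p = 0.000665) and Hdhd3 by 4.45 (adjusted p = 8.86e-05). Hsdl2 rose by 1.45 (adjusted p = 0.00862), a call that was lost without siControl replicate 3 (adjusted p = 0.0509), and scaled by library size alone it stood at -0.32. Gm12909 had 0, 1 and 0 siControl counts against 571, 318 and 97 in siAATF (adjusted p = 0.00338).

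Genes with a pattern most like that of the 7 over the 3 siAATF libraries were sought among 11303 genes not named Mup, by the root mean square difference of centred log2(TMM-normalized CPM + 1). With 3 libraries many genes match closely, so the names are a description. Nearest to the summed members were Gm7292, Abcb10, Hsd17b11, Afmid and Pald1, at 0.0149 to 0.0250. Hsd17b11, a dehydrogenase of steroids and lipid droplets, had 190, 81.7 and 87.5 TMM-normalized CPM. Nearest to Mup3 were Fbxo3 (0.000952) and Pgam5 (0.00740), and to Mup20 Rps3a1 (0.127) and Egr1 (0.247). Akr1c19 was among the 2 nearest to Mup12, Mup17 and Mup21, at 0.111 to 0.189, and Elovl3 among those to Mup12 (0.288) and Mup21 (0.152). The second for Mup17 was Sucnr1 (0.183). Nearest to Mup7 were Chrna2 (0.123) and Gm56810 (0.139). Mup9 had no close match, its nearest genes being Serpina4-ps1 at 1.02 and Gm15622 at 1.05.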

How the data were processed

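Reads were trimmed by the authors (Cutadapt) and aligned once, with STAR (2.7.11), to a joined human and mouse reference with up to 3 mismatches per end, and any read with more than 1 place in it was dropped. Gene counts by featureCounts (2.0.1) were deposited raw, as a mouse and a human table (versions from the submitters' processing notes). Whether counting used strand is not given in the sources used here. Of 56884 mouse identifiers, 561 stayed unnamed in gencode. Of the human table, 3 lines that held 1 broken gene were left out.

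The test was edgeR's quasi-likelihood test (4.0.16, R 4.3.3) with TMM, a minimum total of 10 counts per gene and group alone, adjusted over 18018 mouse genes. It was also run on simulated counts with few and balanced changes, a setting unlike these data, so nothing is drawn from that run. The members and lists were chosen with earlier results of these data known. Named were the 7 genes, other Mup genes with at least 10 counts, up to 4 called genes per list and direction by fitted change with a mean of at least 50 counts, Ghr, Stat5b, Hnf4a, Igf1 and Alb, and the 5 and 2 nearest genes in pattern. Genes outside this rule are named for their role on a list, and after their values were seen. One hepatocyte marker, Tf, was not matched by symbol. Windows and coding sequences came from GRCm39 with gencode vM39. Python 3.11.15, Biopython 1.88 and matplotlib 3.10.9 were used. Alternatives were DESeq2 (1.42.0), RLE, library size alone, other filters, a replicate block, and each library left out.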

Additional observations from a re-analysis of the deposited data

How the results depend on the processing

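The depth of the siControl mouse counts limited most comparisons, since 3 counts equal 1.67 to 7.25 TMM-normalized CPM there, beside 7.16 for Mup12 in siAATF replicate 3. Scaling by library size alone moved the median log2 fold change of all genes from 0.50 to -1.30. Under it, 747 genes were called higher and 7276 lower, and the calls became 0 higher and 1 lower in the female-biased list, 5 lower in the growth hormone list, 3 higher among other lipocalins, 2 higher and 7 lower among flanking genes and 0 higher among markers of other cells. Hsdl2 turned to -0.32 and Stat5b to -0.97. Requiring at least 10 counts in every library left 3552 genes, with 872 higher and 873 lower. The lists then kept 3 tested male-biased genes, all 3 called, 4 calls higher for growth hormone genes, 3 for other lipocalins, 2 higher and 1 lower for flanking genes and 0 higher for other cell markers, and no other Mup gene could be tested. Without a filter, 6 female-biased genes and 2 markers of other cells were called higher and 1 flanking gene lower. RLE and DESeq2 each called 1 flanking gene lower. With the calls of the study's methods (p under 0.05 before adjustment, log2 fold change beyond 2), 3 female-biased genes were called higher.

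With each library left out in turn, 1611 to 3579 genes were called higher and 1722 to 2509 lower, the fewest without siControl replicate 3. Calls were 7 to 14 for other Mup genes, 13 to 17 for male-biased genes, 1 to 3 for female-biased genes, 6 to 8 higher for growth hormone genes, 3 to 7 higher and 0 to 1 lower for other lipocalins, 3 to 7 higher and 0 to 1 lower for flanking genes, 13 to 19 for hepatocyte markers, and 0 to 2 higher and 15 to 18 lower for markers of other cells. The cause of these differences was not tested.

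Same-numbered libraries did not deviate together in each pair (r = 0.145, 0.212 and -0.0229 across genes for numbers 1 to 3), so the numbers were not taken to pair the mice. With the replicate block, 6 female-biased genes and 2 markers of other cells were called higher and 1 flanking gene lower, Orm1 lost its call (adjusted p = 0.0545), and 11 other Mup genes were called.

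The members' mean share of mouse counts in siAATF was 1.08% without mitochondrial genes, 0.723% of human and mouse counts, 0.785% with all Mup genes and pseudogenes (the last chosen after seeing the data), and 0.424% to 0.916% with 1 library left out. In siControl it was 0.0494%, 0.000896%, 0.0477% and 0.00451% to 0.0697%, the siControl libraries having been left out after seeing the data. The pooled share of unique exon windows was 42.5% with 100 bases, 31.3% with 50 bases, 56.9% among Mup transcripts alone and 73.3% with 300 bases, a length chosen after seeing the data. The lower bounds without single libraries, the siControl counts without replicate 1 the ratios and bounds in CPM without TMM and the values of single genes per Alb count were also added after seeing the data.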
